A study of Trichoderma reesei with 15 samples.

Results

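A small group of 6 genes of Trichoderma reesei, out of 10879 listed, was higher in parent replicate 2 than in parent replicate 1. This held for the parents under both tags of the sample titles, DD1 and DD3. The genes were chosen on counts per 1000000 counts of the library (CPM), with 1 CPM added before ratios were taken. A gene had to be at least 4-fold higher in replicate 2 than in replicate 1 of the parent tagged DD1, and at least 2-fold higher in replicate 2 than in replicate 1 of the parent tagged DD3. It also needed at least 10 CPM in replicate 2 of DD1 and a mean under 1000 CPM over the 4 parent libraries. Parent values therefore describe the genes and support nothing below. The libraries of the deletion strains had no part in the choice.

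RNA was sequenced from mycelium grown on cellulose for 96 h at 28 °C without light. All strains derive from QM6a and lack mus53, which acts in non-homologous end joining of broken DNA, a deletion used to make gene targeting easier. The groups were the parent QM6aΔmus53 in DD1 (n = 2) and in DD3 (n = 2), Δpp2A in DD1 (n = 4), Δpph5 in DD1 (n = 3) and Δpph5-2 in DD3 (n = 4). The titles gave the groups: Δpp2A replicate 1 has a type label of WT, and the Δpph5-2 libraries carry the Δpph5 strain as source name. The sources used here do not say what DD1 and DD3 mean, whether replicates are separate cultures or whether a strain is 1 clone. The p-values below therefore reflect the spread among these libraries alone, and that spread may be technical.

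Trichoderma reesei is a filamentous fungus that secretes cellulases, and its transcripts on cellulose are known to depend on nutrients, light and the state of the culture. PP2A and PP5 are serine/threonine protein phosphatases, enzymes that take phosphate groups off proteins and so reverse the action of kinases. PP2A acts as a complex whose regulatory subunits set its targets, while PP5 type enzymes carry their own regulatory repeats. By its title, the series concerns their role in cellulase regulation.

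The table pairs its identifiers with no gene names, and 0 of them matched the reference gene table, so no role can be given for any of the 6 genes. No sequences of these genes were analysed here.

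Library totals were 6026511 to 13572121 counts. In each deletion strain 1 gene was below 1% of its mean in the other strains while every library of the other strains had at least 5 CPM of it, and 0 of these 3 genes were among the 6. Some libraries stood apart from their own group. Δpph5 replicate 1 differed from replicates 2 and 3 of its strain with a chi-square per degree of freedom of 240 and 217, against 14.7 between replicates 2 and 3. It was closest to Δpph5-2 replicate 2 (r = 0.975, taken over genes, which do not count as independent replicates), while replicate 3 was closest to replicate 2 (r = 0.976). Δpph5 replicate 2 had the lowest total and was closest to replicate 1 of the DD1 parent (r = 0.976). Δpph5-2 replicate 4 differed from replicates 1 and 2 of its strain with 92.0 and 97.6 per degree of freedom, against 8.41 between those. It was closest to replicate 1 of the DD3 parent (r = 0.975), and Δpph5-2 replicate 3 to replicate 2 of the DD1 parent (r = 0.983). The same measure was 268 between the DD1 parents and 92.2 between the DD3 parents. For Δpph5, values without single libraries are given where they change a call or move a value by much.

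The 2 parent ratios that made the choice placed the 6 genes at the edge of a larger group. At least 10 CPM in replicate 2 and a 4-fold difference in DD1 were met by 110 genes, of which 104 also had a parent mean under 1000 CPM. In DD3, 102 of these 104 genes were likewise higher in replicate 2, with ratios of 0.944 to 2.34 and a median of 1.61. The 2-fold limit in DD3 kept 6 of them. The ratios of the 6 genes ran from 4.40 (TrB1686C) to 9.32 (TrF1134W) in DD1 and from 2.01 (TrB1896C) to 2.34 (TrC1547W) in DD3.

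Several genes lay close to the limits. Just inside the 4-fold limit were TrB1686C (4.40) and TrG0370W (4.80), and just outside it TrF0086C (3.997) and TrC0946C (3.98). Just inside the 2-fold limit of DD3 were TrB1896C (2.01) and TrB1686C (2.02), and just outside it TrE0110C (1.999) and TrA0228W (1.96). With the scaling of edgeR (TMM, trimmed mean of M values) in the rule, 2 of the 6 genes, TrC1547W and TrF1134W, were still chosen. With 5 CPM added in place of 1, TrC1547W and TrG0370W were still chosen. The group is thus set by where the limits were drawn and by the scaling.

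**Figure D1:**
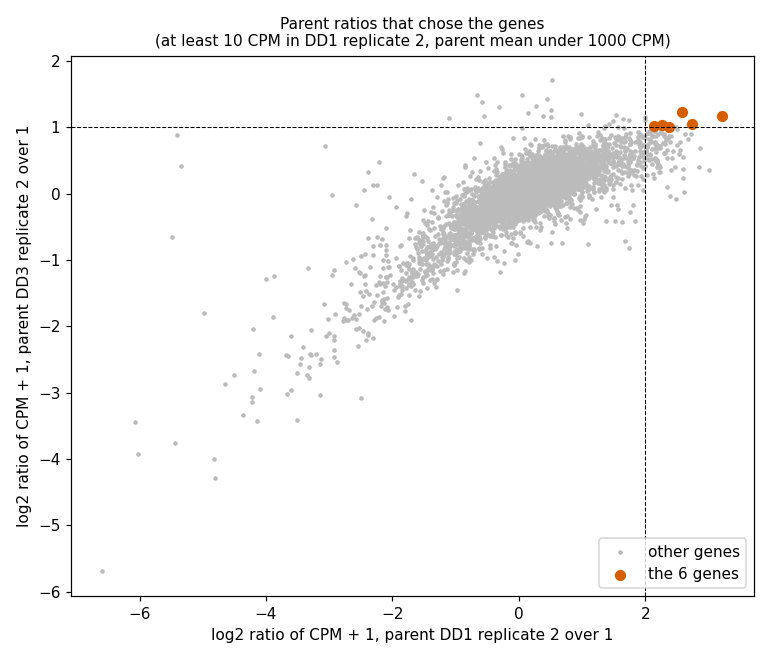
Each point is a gene with at least 10 CPM in parent DD1 replicate 2 and a parent mean under 1000 CPM. The x axis is the log2 ratio of CPM + 1 of parent replicate 2 over 1 in DD1 and the y axis the same in DD3; dashed lines mark the 4-fold and 2-fold limits, and the 6 genes, in orange, lie at the corner of a continuous cloud.

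The 6 identifiers fell under 5 of the 7 letters that the identifiers use, with a pair under B (TrB1686C and TrB1896C). Of the 24 genes within 2 running numbers of a member, 0 were members and 2 were at least 2-fold higher in DD1 parent replicate 2. Lengths ran from 507 bases (TrB1896C) to 2679 bases (TrB1686C), with a median of 927 against 1113 bases over all listed genes, and all 6 lengths were multiples of 3.

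Levels per length differed widely among the 6 genes. As means over the 11 deletion libraries, TrG0370W was highest at 171 CPM per kilobase (75.2 to 337), followed by TrD0190C at 87.2 (22.7 to 146) and TrC1547W at 31.5 (8.48 to 61.8). TrB1686C was at 15.8 CPM per kilobase (7.87 to 28.3), TrB1896C at 8.65 (4.25 to 13.6) and TrF1134W at 2.45 (0.893 to 6.07). The ranges of each pair of neighbours in this order overlapped. All values from here on are CPM of the library total, not per length, unless log2 fold changes are named.

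TrG0370W (1038 bases), the most abundant of the 6, was at 77.2 and 374 CPM in the DD1 parents and at 216 and 444 CPM in the DD3 parents, replicate 1 first. In Δpp2A it was at 114, 78.1, 171 and 94.4 CPM in replicates 1 to 4. In Δpph5 it was at 199, 99.7 and 80.6 CPM, and in Δpph5-2 at 235, 232, 350 and 297 CPM. All 4 Δpph5-2 libraries were above all Δpp2A and Δpph5 libraries, and Δpp2A and Δpph5 overlapped.

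TrD0190C (864 bases) was at 15.8 and 111 CPM in the DD1 parents and at 57.0 and 119 CPM in the DD3 parents. In Δpp2A it was at 82.3, 28.2, 98.4 and 38.2 CPM, in Δpph5 at 75.3, 25.1 and 19.7 CPM, and in Δpph5-2 at 127, 111, 123 and 101 CPM. Replicates 1 and 3 of Δpp2A and replicate 1 of Δpph5 were high within their strains, and all Δpph5-2 libraries lay above them.

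TrB1686C (2679 bases) was at 20.9 and 95.5 CPM in the DD1 parents and at 53.3 and 109 CPM in the DD3 parents. In Δpp2A it was at 30.5, 24.4, 39.2 and 37.0 CPM, in Δpph5 at 48.2, 21.1 and 24.6 CPM, and in Δpph5-2 at 75.9, 58.1, 56.8 and 48.9 CPM. Again all Δpph5-2 libraries were above all libraries of the other deletion strains, although Δpph5-2 replicate 4 was only just above Δpph5 replicate 1.

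TrC1547W (822 bases) had another order of strains. It was at 6.98 and 46.7 CPM in the DD1 parents and at 17.5 and 42.2 CPM in the DD3 parents. In Δpp2A it was at 50.8, 34.3, 34.0 and 42.1 CPM, in Δpph5 at 22.8, 6.97 and 8.83 CPM, and in Δpph5-2 at 22.6, 19.97, 28.5 and 14.3 CPM. All 4 Δpp2A libraries were above the 7 libraries of the other deletion strains, which overlapped each other.

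The remaining pair was low. TrB1896C (507 bases) was at 1.61 and 12.5 CPM in the DD1 parents, 3.39 and 7.81 CPM in the DD3 parents and 2.16 to 6.91 CPM over the deletion libraries. Its strains overlapped, with means of 4.07 ± 1.13 CPM (SD, n = 4) in Δpp2A, 4.08 ± 2.50 CPM (SD, n = 3) in the Δpph5 strain and 4.93 ± 0.543 CPM (SD, n = 4) in Δpph5-2.

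TrF1134W (990 bases) was at 0.644 and 14.3 CPM in the DD1 parents, the former from 6 counts, and at 8.42 and 20.3 CPM in the DD3 parents. Over the deletion libraries it ran from 0.884 CPM (12 counts, Δpph5-2 replicate 2) to 6.01 CPM (54 counts, Δpph5-2 replicate 3). Of its parent libraries, DD1 replicate 1 lay below every deletion library and the other 3 above every deletion library. The choice of genes used those parent values, so the difference from the parents is a description.

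**Figure D2:**
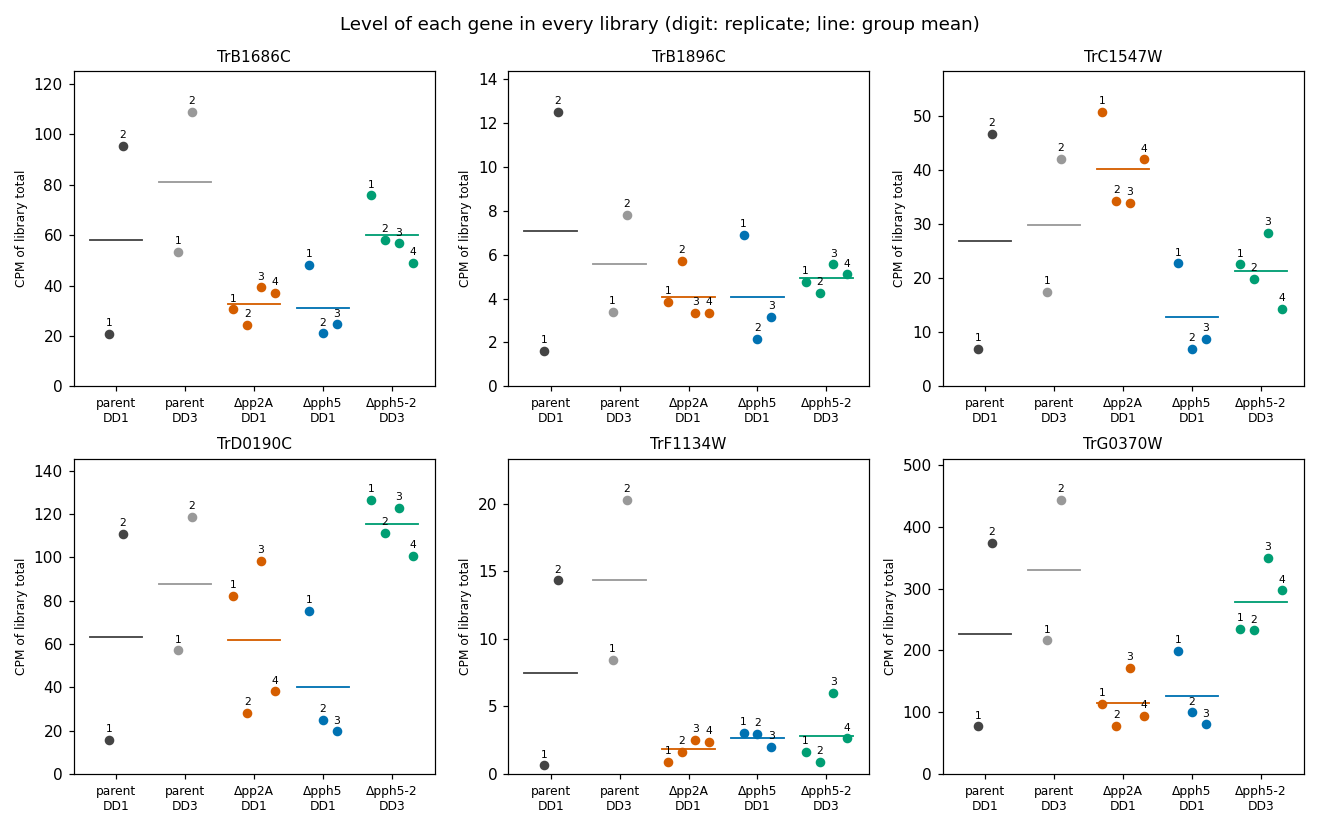
Each panel shows 1 gene, with CPM of the library total on a linear y axis from 0, the 5 groups on the x axis, a point and replicate number for each library and a line at the group mean. Δpph5-2 lies above Δpp2A and Δpph5 for TrB1686C, TrD0190C and TrG0370W, Δpp2A lies above both other deletions for TrC1547W, and Δpph5 replicate 1 is the highest of its strain in all panels.

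Whether the genes also varied among libraries of 1 strain was described in the deletion strains, as the ratio of the highest to the lowest library in CPM + 1. In Δpph5, 5 of the 6 genes were over 2-fold apart, against 28.5% of the 8651 genes tested, and their median ratio was 2.48 against 1.58. In Δpp2A, TrD0190C and TrG0370W were over 2-fold apart (2 of 6, against 6.53% of genes), and in Δpph5-2 only TrF1134W was (1 of 6, against 14.9%). A 4-fold difference was reached by 0 of the 6 genes in each strain. Among genes that met the level limits of the choice, 21.7% were over 2-fold apart in Δpph5, 2.86% in Δpp2A and 7.94% in Δpph5-2.

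Single libraries set these counts. Without Δpph5 replicate 1 the count in Δpph5 fell from 5 to 0, and without replicate 2 it was 3. Without Δpp2A replicate 2 or 3 the count in Δpp2A was 1, and without Δpph5-2 replicate 3 the count in that strain was 0.

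The order of libraries within a strain was also compared among the 6 genes. Δpph5 replicate 1 was the highest of its strain for 6 of 6 genes, while it was highest for 62.6% of all genes tested, so most genes shared that order. It exceeded the next library 3.005-fold for TrD0190C and 2.58-fold for TrC1547W, but 1.02-fold for TrF1134W. The order for TrF1134W holds only in CPM of the library total. The TMM factors of Δpph5 replicates 1 to 3 were 1.05, 0.802 and 0.873, and with them replicate 2 was the highest for TrF1134W. In Δpp2A replicate 3 was highest for 4 genes and lowest for the other 2, against 27.3% and 33.6% of all genes tested. Both lowest places were near ties. TrB1896C was at 3.348 CPM against 3.355 in replicate 4, and TrC1547W at 34.04 CPM against 34.34 in replicate 2. With the TMM factors of replicates 2 to 4 (1.145, 1.129 and 1.147) replicate 3 was no longer the lowest for either gene. In Δpph5-2 replicate 3 was highest for 4 genes in CPM of the library total, against 18.8%. The total of Δpph5 replicate 1, 9842288 counts, was the highest of its strain, with 6026511 and 8496557 in the other replicates, and the part of depth in this order was not tested.

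The 6 genes together held a small part of each library. Their summed share was 0.0123% and 0.0654% of the counts in the DD1 parents and 0.0356% and 0.0742% in the DD3 parents, values which the choice shaped. It was 0.0172% to 0.0349% in Δpp2A, with a mean of 0.0255 ± 0.00769% (SD, n = 4), and 0.0427% to 0.0570% in Δpph5-2, with a mean of 0.0483 ± 0.00610% (SD, n = 4). In Δpph5 the shares were 0.0355%, 0.0158% and 0.0139%. The Δpph5-2 shares were all above those of Δpp2A and Δpph5. TrG0370W, TrD0190C and TrB1686C supplied most of these sums, as the other 3 genes made up 0.00463% of the counts in Δpp2A and 0.00291% in Δpph5-2.

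The same rule with replicates 1 and 2 exchanged chose 266 genes, far more than the 6. These held 6.86% and 0.684% of the counts in the DD1 parents. In Δpph5 they held 1.16%, 8.19% and 6.94%. Replicate 1 was the lowest of its strain for 261 of the 266 genes, against 24.7% of all genes tested. In CPM it was the highest for the 6 genes, as it was for 62.6% of all genes tested. In Δpp2A the 266 genes held 0.994% to 1.59%, in Δpph5-2 0.808% to 2.45%. Δpp2A replicate 3 was the highest of its strain for 188 of the 266, against 27.3% of all genes tested, so that order was not particular to the 6 genes. Δpph5-2 replicate 3 was highest for 1 of the 266 and lowest for 144, against 18.8% and 30.5% of all genes tested. Replicate 4 of that strain was highest for 241 of the 266, against 18.3%.

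**Figure D3:**
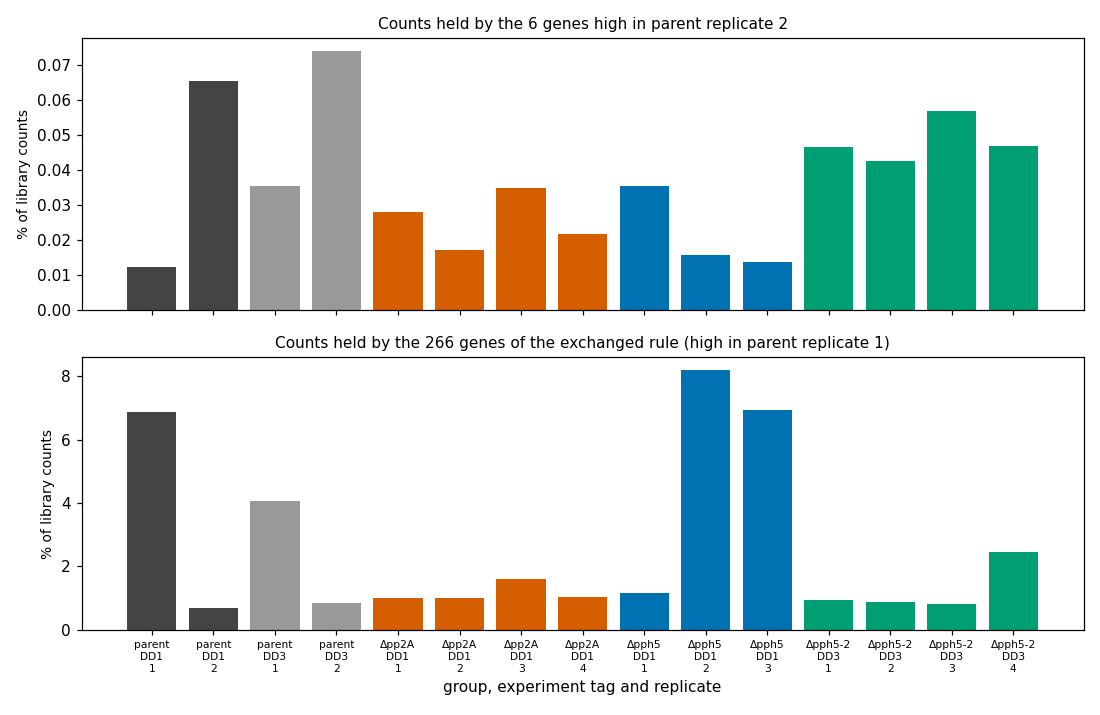
Bars give, for each of the 15 libraries on the x axis, the percent of library counts held by the 6 genes (upper panel) and by the 266 genes of the exchanged rule (lower panel). In Δpph5 the upper bars are highest in replicate 1 at 0.0355% and the lower bars are highest in replicate 2 at 8.19%, and the 4 Δpph5-2 libraries are the highest deletion libraries in the upper panel.

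Differences between the deletion strains were tested with edgeR's quasi-likelihood test over the 11 deletion libraries, which left the parent libraries out of both the contrast and the estimate of spread. All 6 genes passed its filter on low counts. A gene was called when its p, adjusted after Benjamini and Hochberg across the 8651 genes tested, was under 0.05.

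Δpp2A and Δpph5 both carry the tag DD1. Between them, TrC1547W was higher in Δpp2A and the other 5 genes were not called. Its mean was 40.3 ± 7.93 CPM (SD, n = 4) in Δpp2A and 12.9 ± 8.63 CPM (SD, n = 3) in Δpph5. The log2 fold change was 1.35 (SE 0.33, 95% interval 0.62 to 2.08, adjusted p = 0.0107 by edgeR), with 4 of 4 Δpp2A libraries above all Δpph5 libraries. The call was kept without each single library of either strain, with adjusted p-values by edgeR of 3.44e-04 to 0.0485 and log2 fold changes of 1.14 to 1.88, the highest without Δpph5 replicate 1. With the parent libraries in the fit the log2 fold change was 1.37, with an SE of 0.53 and an adjusted p of 0.0638 by edgeR. The genes were chosen for their spread in the parents, which enters that SE by construction, and 33.8% of all genes were called in that fit. Of all genes tested 39.6% were called in this comparison, and 16.0% of all genes tested were called higher in Δpp2A, so 1 called gene among 6 is close to the background. Libraries without overlap and higher in Δpp2A were found for this 1 gene of the 6, against 36.9% of genes tested. In TMM-scaled CPM TrF1134W in Δpp2A lay below all Δpph5 libraries as well, against 18.8% of genes tested. That gap was narrow, and in CPM of the library total the 2 strains overlapped. It rested on 10 to 27 counts in Δpp2A and 17 to 30 in Δpph5, and the gene was not called (adjusted p = 0.287 by edgeR).

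The genes not called in that comparison had wide intervals. The log2 fold change of Δpp2A over Δpph5 was 0.36 (95% interval -0.69 to 1.41) for TrD0190C and -0.86 (-2.26 to 0.52) for TrF1134W. It was -0.45 (-1.15 to 0.25) for TrG0370W, -0.32 (-1.04 to 0.40) for TrB1896C and -0.24 (-0.73 to 0.25) for TrB1686C. Single libraries moved these values. Without Δpph5 replicate 1, TrD0190C was at 1.004, TrG0370W at -0.13, TrB1896C at 0.13 and TrB1686C at 0.059 as log2 fold change. Without Δpp2A replicate 3, TrD0190C was at 0.032 and TrG0370W at -0.72. TrF1134W ran from -1.06 to -0.63 when single libraries were left out. Changes of 2-fold in at least 1 direction lay within the intervals of TrD0190C, TrF1134W, TrG0370W and TrB1896C.

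Between Δpp2A and Δpph5-2, TrG0370W and TrB1686C were lower in Δpp2A, and edgeR did not call the other 4 genes. TrG0370W was at 114 ± 40.7 CPM (SD, n = 4) in Δpp2A and 278 ± 56.4 CPM (SD, n = 4) in Δpph5-2, which is -1.47 as log2 fold change (SE 0.30, edgeR adjusted p = 0.00578). TrB1686C was at 32.8 ± 6.70 CPM (SD, n = 4) and 59.9 ± 11.4 CPM (SD, n = 4), or -1.04 as log2 fold change (SE 0.21, edgeR adjusted p = 0.00482). All 4 Δpp2A libraries lay below all 4 Δpph5-2 libraries for both genes. With the parent libraries in the fit, TrB1686C was still at -1.04 but with an SE of 0.36 (adjusted p = 0.0647 by edgeR), and the call of TrG0370W was kept (adjusted p = 0.0298 by edgeR). Of all genes 20.1% were called in that fit.

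A further pair did not overlap and was not called by edgeR over the 11 libraries. TrD0190C was at 61.8 ± 33.9 CPM (SD, n = 4) in Δpp2A and 115 ± 11.7 CPM (SD, n = 4) in Δpph5-2 (edgeR adjusted p = 0.105, log2 fold change -1.07 with SE 0.43). TrC1547W was at 40.3 ± 7.93 CPM in Δpp2A and 21.3 ± 5.87 CPM (SD, n = 4) in Δpph5-2 (edgeR adjusted p = 0.0942, log2 fold change 0.74 with SE 0.29). DESeq2 called TrD0190C as well (adjusted p = 0.0437 by DESeq2, with 28.8% of all genes called). With only both groups in the fit, edgeR called TrC1547W (adjusted p = 0.0242 by edgeR, with 33.5% of all genes called). Below all Δpph5-2 libraries lay 3 of the 6 genes, against 10.5% of genes tested, and above them 1, against 31.0%. In TMM-scaled CPM the same 4 genes did not overlap, and the shares over all genes were 17.9% below and 18.3% above. Of all genes 22.9% were called and 12.2% were lower in Δpp2A. Strain and tag differ together here, so their parts cannot be told apart.

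Between Δpph5-2 and Δpph5 edgeR called 0 of the 6 genes, 3 had an unadjusted p under 0.05, and DESeq2 called 3. Over all genes tested, edgeR called 0.347%, 29.0% had an unadjusted p under 0.05 and DESeq2 called 17.9%. Fold changes were largest for TrD0190C (log2 fold change 1.43, 95% interval 0.35 to 2.51, adjusted p = 0.0911 by edgeR), TrG0370W (1.03, 0.31 to 1.74, adjusted p = 0.0750 by edgeR) and TrB1686C (0.80, SE 0.22, adjusted p = 0.0609 by edgeR). For these genes the 4 Δpph5-2 libraries were above all 3 Δpph5 libraries (3 of 6 genes, against 7.33% of genes tested). TrF1134W was at 2.79 ± 2.26 CPM (SD, n = 4) and 2.68 ± 0.588 CPM (SD, n = 3), with a fitted log2 fold change of -0.098 (95% interval -1.46 to 1.26).

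This comparison depended most on Δpph5 replicate 1. Without it 4 of the 6 genes were called by edgeR, all higher in Δpph5-2, but the share of all genes called rose as well, to 37.0%. TrD0190C then had a log2 fold change of 2.08 (adjusted p = 0.0142 by edgeR) and TrC1547W one of 1.14 (adjusted p = 0.00931 by edgeR). Without Δpph5-2 replicate 4 in place of that library, edgeR called 0 of the 6 genes and 9.26% of all genes. The tag again differs with the strain.

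**Figure D4:**
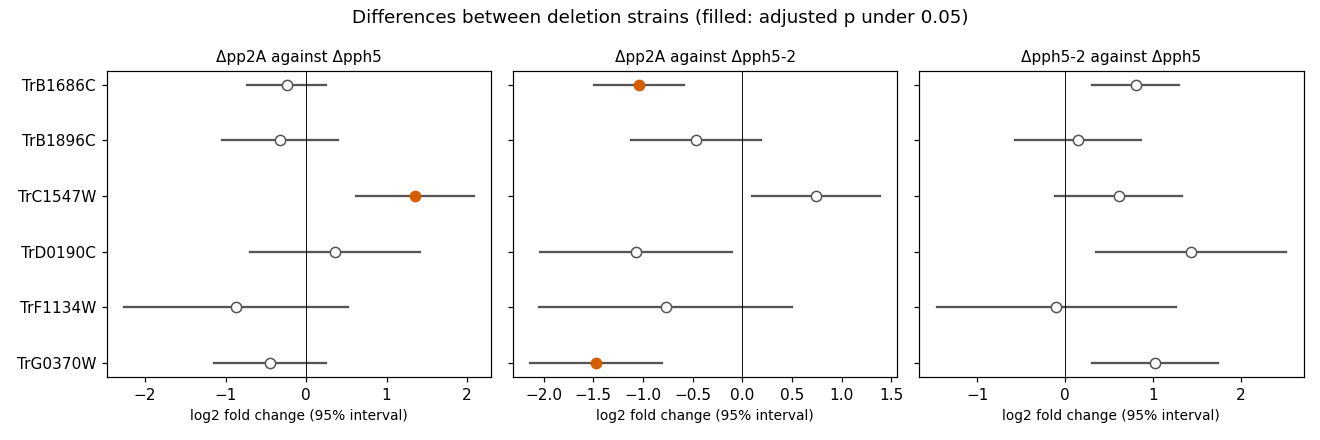
Points give the log2 fold change of each gene on the x axis with its 95% interval, 1 panel per comparison of deletion strains, and filled points mark an adjusted p under 0.05. TrC1547W is filled at 1.35 for Δpp2A against Δpph5, TrB1686C and TrG0370W are filled at -1.04 and -1.47 for Δpp2A against Δpph5-2, and no point is filled for Δpph5-2 against Δpph5.

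Each deletion against its own parent uses the libraries that chose the genes. The choice shaped both the level and the spread of the parents, so the counts below are no test of the genes. In Δpp2A edgeR over all 15 libraries called 0 of the 6 genes, where it called 18.7% of the 8912 genes. DESeq2 called 1, against 25.9% of genes, and 3 had an unadjusted p under 0.05 by edgeR, against 36.0%. For both other deletions edgeR and DESeq2 each called 0 of the 6, where edgeR called 0.0112% of genes in each. DESeq2 called 0.292% of genes in Δpph5 and 0.898% in Δpph5-2. At an unadjusted p under 0.05 by edgeR were 0 of the 6 in Δpph5, against 6.43% of genes, and 1 in Δpph5-2, against 8.64%. Replicate 2 of the DD1 parent and replicate 2 of the DD3 parent each lay above all 11 deletion libraries for 4 of the 6 genes. Replicate 1 of the DD1 parent lay below all of them for 5. The choice used these parent values and the same count over all genes was not made, so nothing is read from these orders.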

How the data were processed

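The deposited table holds raw read counts per gene, made by the authors, with 1 column per library and the gene length. The submitters' processing notes list HISAT2 2.2.1 but no step it served. The sources used here state no counting settings, strand, build or annotation, so overlapping or near-identical genes may share reads. Columns were matched to samples by label and groups taken from titles. The members and comparisons were chosen with earlier results of these data known. No pair of replicates agreed within sampling noise (chi-square per degree of freedom 5.37 to 268).

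Levels are CPM of the column total. Tests used edgeR 4.0.16 in R 4.3.3 (filterByExpr, TMM, robust quasi-likelihood) over the 11 deletion libraries in 3 groups, which left 8651 genes, and over all 15 for contrasts with the parents (8912 genes). Standard errors are the fold change over the root of F. Alternatives were other scalings, no filter, DESeq2 1.42.0, other sets of libraries, a replicate block and leaving out each library. All 6 members are named, which covers the rules for naming genes. TMM-scaled non-overlap was added after seeing the data. No p is given over the members as a group.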

Additional observations from a re-analysis of the deposited data

How the results depend on the processing

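The choice of members depended on its scaling, since TMM scaling and 5 CPM added each left 2 of the 6. With all 15 libraries in the fit, 0 members were called for Δpp2A against Δpph5 and 1 for Δpp2A against Δpph5-2, where 33.8% and 20.1% of all genes were called. The spread of the parents, on which the members were chosen, enters that fit. DESeq2 called 3 for Δpph5-2 against Δpph5 (17.9% of all genes), 3 for Δpp2A against Δpph5-2 (28.8%) and 1 for Δpp2A against its parent (25.9%), a contrast that is no test of the members. With only both groups in the fit, 3 were called for Δpp2A against Δpph5-2 (33.5%). Leaving out single libraries gave 0 to 4 called members for Δpph5-2 against Δpph5, where 0.0228% to 37.0% of all genes were called. It gave 1 each time for Δpp2A against Δpph5 (22.9% to 53.8% of all genes). For Δpp2A against Δpph5-2 it gave 2 each time (15.8% to 21.7% of all genes). Leaving out single libraries also gave 1 to 2 members over 2-fold apart in Δpp2A, 0 to 4 in Δpph5 and 0 to 1 in Δpph5-2, where 5 CPM added gave 0. Without the 3 most abundant members, the mean shares were 0.00463% in Δpp2A, 0.00196% in Δpph5, 0.00291% in Δpph5-2 and 0.00498% in the DD3 parents, by construction.

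Of 330 fold changes of single genes under alternatives, 310 kept their direction and side of the threshold, 10 passed it newly, 2 lost it and 8 changed sign, none of them called. For Δpp2A against Δpph5, TrB1686C became 0.064 with library size only and ran from -0.37 to 0.059 when single libraries were left out, and TrB1896C from -0.53 to 0.13. For Δpph5-2 against Δpph5, TrB1896C ran from -0.070 to 0.59, and TrF1134W from -0.80 to 0.23, with 0.043 for library size only. The cause was not tested.

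Among the 11 deletion libraries, replicate numbers showed no consistent pairing. Of 10 same-numbered pairs 5 correlated over 0.1 (-0.39 to 0.38), and 2 of 11 libraries correlated best with their own number. The parent libraries were left out of this check, so it cannot settle whether replicate numbers pair the samples. Replicate 2 of the DD1 parent and replicate 2 of the DD3 parent were each closest to the other (r = 0.985, taken over genes). With the replicate block 1, 2 and 0 members were called in the 3 comparisons, as without it, while calls over all genes were 2956, 1660 and 2 against 3426, 1977 and 30. Counts of 6 to 30 limit the precision of TrF1134W in most libraries.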

Other observations

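TrC1546W, the gene 1 running number before TrC1547W, was singled out after its values were seen. It was at 11.9 and 34.8 CPM in the DD1 parents and 17.7 and 24.8 CPM in the DD3 parents. In Δpp2A it was at 42.7, 42.2, 48.6 and 42.9 CPM, in Δpph5 at 33.2, 10.8 and 15.7 CPM, and in Δpph5-2 at 31.0, 30.5, 26.8 and 19.7 CPM. As for TrC1547W, all 4 Δpp2A libraries were above the 7 libraries of the other deletion strains, and Δpph5 replicate 1 was the highest of its strain. Over all genes tested, Δpp2A lay above all Δpph5 libraries for 36.9% and above all Δpph5-2 libraries for 31.0%. The share above both strains at once was not counted. Δpph5 replicate 1 was the highest of its strain for 62.6% of genes tested. Its ratios of parent replicate 2 over replicate 1 were 2.77 in DD1 and 1.38 in DD3, below both limits of the choice. The sources used here do not say what running numbers stand for, so a shared position was not tested.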
